A study of Homo sapiens with 4 samples.

Results

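The loci of 10 transcription factors of blood stem and progenitor cells, GATA2, TAL1, LYL1, LMO2, FLI1, ERG, HHEX, MECOM, HLF and GFI1B, were examined for open chromatin in SEM cells. A peak was assigned to a locus when it overlapped the annotated gene body or the 50 kb on either side of it in hg19. By this rule 175 of the 139872 consensus peaks belonged to the 10 loci, no peak fell in the windows of more than one of them, and every locus held at least 4 peaks. Of the 175 peaks, 22 lay no more than 1 kb from the start of a protein-coding transcript of the factor (own promoter peaks), 8 lay within 1 kb of a start of a neighbouring protein-coding gene (other promoter peaks), and 145 were distal. GATA2 and TAL1 had no own promoter peak.

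SEM is a B cell precursor leukemia line with an MLL rearrangement. Open chromatin was profiled with ATAC-seq, where a transposase cuts accessible DNA and attaches sequencing adaptors. All cells carried dCas9-KRAB, the nuclease-dead form of Cas9 joined to a repressor domain. In some cells it was paired with sgFLT3-DE-1, a guide against a HOXA9-bound enhancer of FLT3 (2 libraries), and in control cells with sgNT, a non-target guide (2 libraries). Both groups therefore carried the repressor fusion and a guide, and the sources used here do not say whether either was a single clone. The labels do not state that the libraries came from separate cultures, so each p-value measures no more than how far these libraries differ, and that spread can be technical.

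These factors act together in stem cells. GATA2 is a zinc finger protein that binds GATA motifs, TAL1 and LYL1 are basic helix-loop-helix proteins that bind E-boxes with a ubiquitous E protein partner, and LMO2 binds no DNA itself but bridges the GATA and helix-loop-helix factors. FLI1 and ERG are ETS factors that occupy many of the same regulatory regions. HHEX is a homeodomain repressor, MECOM (which also encodes EVI1) a zinc finger regulator of stem cell maintenance, HLF a leucine zipper factor whose expression marks stem cells, and GFI1B a zinc finger repressor needed for red cell and platelet precursors.

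In stem and progenitor cells the GATA and TAL1 factors can sit side by side on DNA at an E-box with a GATA motif close by. The distal peaks were searched on both strands for such pairs, with the letters AGATAA for GATA and CAGATG or CAGCTG for the E-box, at most 20 bases apart. Pairs were found in 5 of the 145 distal peaks, at GATA2, FLI1, MECOM (in 2 peaks) and GFI1B. The stretches that hold them are printed from the hg19 plus strand, 5′ to 3′, with both motifs in capitals, so that the spacing and orientation of each pair can be read:
GATA2 intron, chr3:128202142-128202177: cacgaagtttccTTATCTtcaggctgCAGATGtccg
FLI1 downstream, chr11:128702091-128702146: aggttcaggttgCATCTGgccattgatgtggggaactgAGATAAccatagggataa
MECOM intron, chr3:168823009-168823060: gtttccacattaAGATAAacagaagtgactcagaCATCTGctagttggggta
MECOM intron, chr3:168945982-168946033: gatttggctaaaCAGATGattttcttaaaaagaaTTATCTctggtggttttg
GFI1B downstream, chr9:135878469-135878511: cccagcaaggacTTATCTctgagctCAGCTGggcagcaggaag

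TTATCT and CATCTG are AGATAA and CAGATG read on the other strand. The gap between the motifs was 8 bases at GATA2, 20 at FLI1, 16 in both MECOM peaks and 7 at GFI1B. The MECOM peak at chr3:168945800-168946182 was by far the most accessible of the 5, with 44.7 CPM (TMM-scaled counts relative to the library total) averaged over the 4 libraries, against 1.24 to 5.09 CPM in the other 4. The GATA2 stretch lies in an intron that is known to hold a stem cell enhancer of GATA2 with this pair of motifs. Its peak, chr3:128202084-128202177, drew only 3 and 8 counts in sgFLT3-DE-1 libraries, against 2 and 4 in sgNT libraries, too few to be tested.

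Over the central 300 bases of the strongest distal peak of each locus, 4 carried at least 2 of the kinds of motif searched. The kinds also included TGTGGT for RUNX, ACCGGAAG for ETS and TGATTGAT for PBX-HOX. The strongest HLF distal peak held 2 kinds (CAGATG and TGTGGT) only over its whole length and is not shown. The central 300 bases (or the whole peak, where shorter) are shown with the matches in capitals, so that the open regions described next can be read beside their values:
GATA2 downstream, chr3:128166575-128166874: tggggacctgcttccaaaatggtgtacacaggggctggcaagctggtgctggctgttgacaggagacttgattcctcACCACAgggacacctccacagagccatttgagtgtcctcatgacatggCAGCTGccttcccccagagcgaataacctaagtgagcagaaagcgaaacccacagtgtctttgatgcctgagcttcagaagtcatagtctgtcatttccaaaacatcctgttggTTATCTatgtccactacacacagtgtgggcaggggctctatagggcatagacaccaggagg
LMO2 upstream, chr11:33915414-33915713: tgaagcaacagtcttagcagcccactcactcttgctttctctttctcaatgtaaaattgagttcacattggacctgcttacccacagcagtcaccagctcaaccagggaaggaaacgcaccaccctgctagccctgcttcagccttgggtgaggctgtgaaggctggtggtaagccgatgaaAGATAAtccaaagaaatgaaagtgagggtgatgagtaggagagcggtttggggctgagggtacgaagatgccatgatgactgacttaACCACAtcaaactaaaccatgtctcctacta
HHEX downstream, chr10:94502047-94502299: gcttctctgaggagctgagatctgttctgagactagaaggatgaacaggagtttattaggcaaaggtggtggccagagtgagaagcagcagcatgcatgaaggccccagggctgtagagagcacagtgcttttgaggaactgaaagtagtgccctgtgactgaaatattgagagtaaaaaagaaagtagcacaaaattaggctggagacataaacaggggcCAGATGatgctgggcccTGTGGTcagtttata
GFI1B downstream, chr9:135867134-135867433: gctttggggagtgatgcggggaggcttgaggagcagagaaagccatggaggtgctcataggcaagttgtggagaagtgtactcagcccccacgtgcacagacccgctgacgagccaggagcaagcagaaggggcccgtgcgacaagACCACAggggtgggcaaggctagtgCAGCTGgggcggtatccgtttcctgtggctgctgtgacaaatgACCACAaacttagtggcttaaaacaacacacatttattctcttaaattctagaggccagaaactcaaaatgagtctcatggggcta

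The GATA2 region holds a GATA, an E-box and a RUNX match, with 108 bases between the GATA match and the E-box. The LMO2 region holds a GATA and a RUNX match, the HHEX region an E-box and a RUNX match, and the GFI1B region an E-box and 2 RUNX matches. The strongest distal peaks of LYL1 and MECOM had none of these letters in the same window. A match describes the sequence and is not a measured binding site.

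The libraries held 3670758 and 4831164 counts with sgFLT3-DE-1, against 3321429 and 2683477 with sgNT. Libraries with the same number were more alike (Pearson correlations of 0.915 and 0.922) than libraries of the same guide (0.875 and 0.887). The B cell precursor label was checked on promoters. Of 10 B cell precursor genes 8 had a promoter peak, all but CD79A and BLNK. A promoter peak was found for 3 of 6 myeloid, 1 of 5 T cell and 2 of 4 non-hematopoietic genes. Of 8 erythroid and megakaryocyte genes 3 had one, and their summed level was 580 and 247 CPM with sgFLT3-DE-1, against 68.5 and 57.7 CPM with sgNT. KLF1, ALAS2, EPOR and PF4 had no promoter peak with either guide. Most of this sum was HBB, a globin gene, whose 2 peaks were the only ones of all 82558 tested to pass (edgeR adjusted p = 0.00052 and 0.00906). They lie at chr11:5246126-5247346, which is 1221 bp long, and chr11:5247720-5247830. Both count as promoter peaks because an edge comes within 1 kb of a start, which does not place them on the HBB promoter itself. The part of HBB in any value at the loci described here was not tested.

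The loci differed in how densely they were covered. FLI1 had 37 peaks in its window, or 16.3 per 100 kb, which placed it in the top 1.68% of 20098 protein-coding genes ranked in the same way. LMO2 followed with 17 peaks (12.7 per 100 kb, top 7.19%), then LYL1 with 11 (10.6 per 100 kb), HHEX with 11 (10.4), GFI1B with 12 (8.13), ERG with 28 (7.33), HLF with 10 (6.24) and MECOM with 40 (5.88). GATA2 with 5 peaks (4.39 per 100 kb) and TAL1 with 4 (3.45) were the sparsest. These 2 loci and MECOM lay below the median of all genes of 6.11. The strongest peak of the window was distal at 8 of the 10 loci. It was an own promoter peak at HHEX, and at GFI1B it was the promoter of the neighbour GTF3C5. Own promoter peaks had a median of 6.92 CPM, against 9.55 CPM for all 21028 consensus promoter peaks, and 13.6% of them (3 of 22) were among the top 10% of all peaks, against 30.9% of all promoter peaks. Distal peaks had a median of 4.03 CPM, against 3.13 CPM for all consensus peaks beyond 1 kb of a start, and 6.90% (10 of 145) were in the top 10%, against 6.30%.

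**Figure D1:**
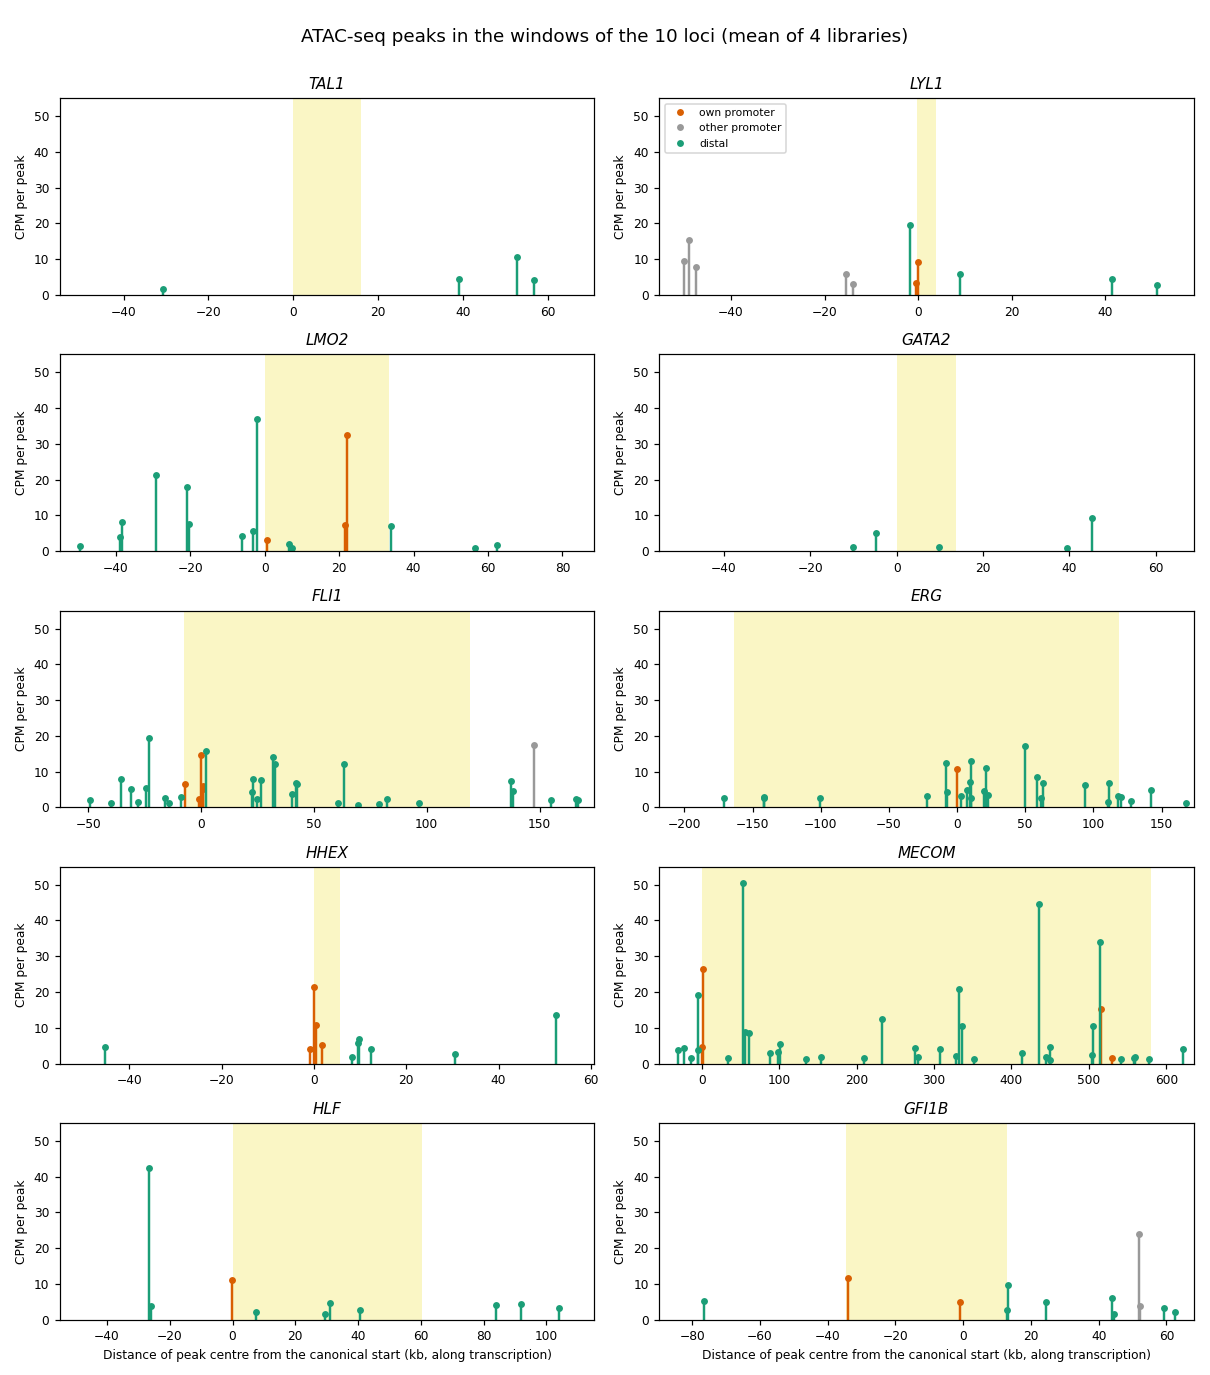
Peaks in the 10 windows by distance of the peak centre from the canonical start in kb (positive along transcription, different scale per panel), with height in CPM as the mean of 4 libraries; colours mark own promoter, other promoter and distal peaks, and the shaded band is the gene body. TAL1 and GATA2 have few and low peaks, whereas MECOM, HLF and LMO2 each hold a distal peak of 37.1 CPM or more.

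TAL1, the helix-loop-helix factor that specifies blood, had no peak inside its gene body or at its starts. Its strongest peak, chr1:47644839-47645232, lay 52.9 kb downstream of the canonical start, beyond the neighbour PDZK1IP1, with 10.2 and 12.4 CPM in sgFLT3-DE-1 libraries, against 6.68 and 12.8 CPM in sgNT libraries. The ranges overlapped (edgeR log2 fold change 0.24, SE 0.354). The peak of smallest p at TAL1, chr1:47658656-47658832, was lower in both sgFLT3-DE-1 libraries (4.02 and 2.65 CPM) than in both sgNT libraries (5.68 and 5.2 CPM), with a log2 fold change of -0.74 (SE 0.483, unadjusted p = 0.139). A weak peak, of 1.6 CPM, lay 30.8 kb upstream, inside STIL. The other of the 4 peaks, chr1:47641097-47641255, lay further downstream than the strongest one. The promoter of STIL itself, 82.0 kb from the TAL1 start and outside the window, had 63.2 CPM.

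LYL1, the close relative of TAL1, was open at its start. The own promoter peak chr19:13213625-13213904, over exon 1, had 4.94 and 7.96 CPM in sgFLT3-DE-1 libraries, against 11.03 and 12.8 CPM in sgNT libraries. The groups did not overlap, and the log2 fold change was -0.85 (SE 0.361, edgeR unadjusted p = 0.026, adjusted p = 1.0). A stronger peak 1.68 kb upstream, chr19:13215121-13215583, had 13.0 and 18.4 CPM in sgFLT3-DE-1 libraries, against 16.4 and 30.8 CPM in sgNT libraries (log2 fold change -0.56, SE 0.307), and these ranges overlapped. This peak lies 1.15 kb from the nearest LYL1 start, just outside the promoter limit. The LYL1 window is also the most crowded with other genes, and 5 of its 11 peaks belonged to promoters of TRMT1, NACC1, STX10 and IER2. At TRMT1, which encodes a tRNA methyltransferase, the peak chr19:13227522-13227727 had 1.54 and 1.33 CPM in sgFLT3-DE-1 libraries, against 5.01 and 4.80 CPM in sgNT libraries. This was the smallest p of all peaks tested in the 10 windows (log2 fold change -1.76, SE 0.616, unadjusted p = 0.00779, adjusted p = 1.0), and it rested on 5 and 6 counts with sgFLT3-DE-1 and 15 and 12 counts with sgNT. TRMT1 and NACC1 overlap there, and the counts do not separate them.

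LMO2, the bridging protein of the complex, is transcribed from more than one promoter. Its strongest own promoter peak, chr11:33890985-33891853, was not at the canonical start but at an internal start 22.2 kb into the gene, and had 26.6 and 40.02 CPM in sgFLT3-DE-1 libraries, against 29.4 and 33.6 CPM in sgNT libraries (log2 fold change 0.09, SE 0.265). The sgNT range lay within the sgFLT3-DE-1 range. The peak nearest the canonical start, 0.517 kb into the gene, had only 3.07 CPM on average. Upstream, the strongest distal peak, chr11:33915299-33915828, 1.94 kb before the start, had 32.1 and 38.7 CPM in sgFLT3-DE-1 libraries, against 39.8 and 37.6 CPM in sgNT libraries (log2 fold change -0.12, SE 0.252). Its central bases are the LMO2 sequence printed above. Further peaks of 17.8 and 21.2 CPM lay 20.8 and 29.3 kb upstream. The own promoter peak and the distal peaks 1.94 and 29.3 kb upstream were in the top 10% of all peaks. The smallest p at the locus belonged to a small internal promoter peak, chr11:33892003-33892181, with 5.25 and 6.41 CPM in sgFLT3-DE-1 libraries, against 8.36 and 8.81 CPM in sgNT libraries. It was lower in both sgFLT3-DE-1 libraries, but its log2 fold change of -0.54 (SE 0.382, unadjusted p = 0.168) was within 2 standard errors of 0.

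GATA2, the stem cell GATA factor, was the least open of the 10 by its strongest peak. That peak, chr3:128166449-128167000, 45.3 kb downstream of the canonical start, had 7.72 and 9.07 CPM in sgFLT3-DE-1 libraries, against 10.4 and 9.61 CPM in sgNT libraries (log2 fold change -0.24, SE 0.348). The only other GATA2 peak with enough counts to be tested, chr3:128216539-128216922, 4.69 kb upstream, had 5.25 and 6.41 CPM in sgFLT3-DE-1 libraries, against 4.68 and 4.40 CPM in sgNT libraries (log2 fold change 0.37, SE 0.437). Neither pair of groups overlapped, and the estimates ran in opposite directions. The remaining 3 peaks, the intronic one with the E-box and GATA pair among them, had 0.946 to 1.24 CPM.

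FLI1, an ETS factor of stem cells, megakaryocytes and lymphocytes, was open at 5 own promoter and 31 distal peaks. The peak at the canonical start, chr11:128563722-128564073, had 13.3 and 15.9 CPM in sgFLT3-DE-1 libraries, against 16.7 and 12.8 CPM in sgNT libraries (log2 fold change -0.02, SE 0.301). The strongest distal peak, chr11:128540885-128541182, 22.9 kb upstream, had 17.9 and 19.0 CPM in sgFLT3-DE-1 libraries, against 21.4 and 19.6 CPM in sgNT libraries (log2 fold change -0.15, SE 0.275). First intron peaks 1.99, 31.7, 32.9 and 63.4 kb into the gene had 15.9, 14.2, 12.1 and 12.2 CPM, so no single peak dominated FLI1. Other peaks of the locus were far weaker, down to 0.667 CPM at chr11:128633305-128633384. An upstream start of FLI1 had the smallest p at the locus. Its peak, chr11:128556862-128557141, had 7.41 and 8.62 CPM in sgFLT3-DE-1 libraries, against 5.68 and 4.80 CPM in sgNT libraries (log2 fold change 0.61, SE 0.397, unadjusted p = 0.135). The promoter of KCNJ1, a potassium channel gene, at chr11:128711537-128711907, had 19.2 and 20.6 CPM in sgFLT3-DE-1 libraries, against 15.4 and 14.8 CPM in sgNT libraries (log2 fold change 0.40, SE 0.284).

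ERG, the other ETS factor, had a single own promoter peak and 27 distal ones. The promoter peak chr21:39870566-39870785 had 6.49 and 9.29 CPM in sgFLT3-DE-1 libraries, against 13.4 and 13.6 CPM in sgNT libraries (log2 fold change -0.75, SE 0.337, unadjusted p = 0.034, adjusted p = 1.0). The strongest distal peak, chr21:39820605-39820891, in intron 1, had 11.7 and 14.2 CPM in sgFLT3-DE-1 libraries, against 22.1 and 20.4 CPM in sgNT libraries (log2 fold change -0.71, SE 0.287, unadjusted p = 0.0203, adjusted p = 1.0). Both peaks were lower in both sgFLT3-DE-1 libraries, and neither passed. They did not stand for the locus, where 9 of 18 tested peaks had a lower and 9 a higher estimate. A second intron 1 peak at 10.1 kb, for example, had 10.8 and 15.9 CPM in sgFLT3-DE-1 libraries, against 8.69 and 16.0 CPM in sgNT libraries.

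HHEX, a homeobox gene of early B cell and stem cell development, had a cluster of 4 own promoter peaks. The main one, chr10:94449442-94450035, had 16.4 and 21.4 CPM in sgFLT3-DE-1 libraries, against 23.1 and 24.4 CPM in sgNT libraries (log2 fold change -0.32, SE 0.273). The distal peak 52.5 kb downstream, chr10:94502047-94502299, had 10.8 and 13.9 CPM in sgFLT3-DE-1 libraries, against 12.7 and 17.2 CPM in sgNT libraries (log2 fold change -0.25, SE 0.312). Of 10 tested HHEX peaks 9 had a lower estimate, beside 39741 of all 82558 tested peaks, and 3 were lower in both sgFLT3-DE-1 libraries, beside 13.8% of all tested peaks. The smallest p, at chr10:94459115-94459350, was 0.171 before adjustment, with 3.09 and 5.75 CPM in sgFLT3-DE-1 libraries, against 6.02 and 8.01 CPM in sgNT libraries (log2 fold change -0.61, SE 0.435).

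MECOM spans the longest window and held the most accessible peaks of the 10 loci, with 6 peaks in the top 10% of all peaks. The strongest, chr3:169328555-169329116, in intron 1, 52.7 kb into the gene, had 63.0 and 43.1 CPM in sgFLT3-DE-1 libraries, against 50.5 and 44.8 CPM in sgNT libraries (log2 fold change 0.15, SE 0.262). Next came the intron 2 peak with the E-box and GATA pair, chr3:168945800-168946182, with 51.9 and 40.7 CPM in sgFLT3-DE-1 libraries, against 47.8 and 38.4 CPM in sgNT libraries (log2 fold change 0.09, SE 0.258). Both peaks were higher in libraries numbered 1 than in libraries numbered 2, with either guide. The strongest own promoter peak, chr3:169379989-169380600, lay 0.900 kb from the nearest MECOM start, just inside the promoter limit, and had 24.7 and 26.3 CPM in sgFLT3-DE-1 libraries, against 31.1 and 23.2 CPM in sgNT libraries (log2 fold change -0.09, SE 0.264). A second promoter region 516 kb into the gene, where shorter transcripts of the locus start, had 15.3 CPM on average, beside a distal peak of 34.0 CPM. The peak with the largest higher estimate of all 10 loci was in intron 1, at chr3:169105782-169105975, with 6.49 and 5.53 CPM in sgFLT3-DE-1 libraries, against 3.34 and 2.00 CPM in sgNT libraries (log2 fold change 1.12, SE 0.496, unadjusted p = 0.031, adjusted p = 1.0). It rested on 21 and 25 counts with sgFLT3-DE-1 and 10 and 5 counts with sgNT. Small peaks 4.88 and 23.3 kb upstream had log2 fold changes of 0.93 (SE 0.526) and 0.72 (SE 0.481).

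HLF, the leucine zipper factor, had 1 own promoter peak and 1 dominant distal peak. The promoter peak chr17:53342167-53342417, over exon 1, had 14.8 and 9.51 CPM in sgFLT3-DE-1 libraries, against 9.69 and 10.0 CPM in sgNT libraries (log2 fold change 0.28, SE 0.341). The distal peak chr17:53315507-53316188, 26.5 kb upstream, had 50.7 and 33.8 CPM in sgFLT3-DE-1 libraries, against 49.8 and 35.6 CPM in sgNT libraries (log2 fold change -0.03, SE 0.269). It was in the top 2.54% of all peaks, and its spread followed the library number. The smallest p was at a weak intron 2 peak, chr17:53382827-53383018, with 3.40 and 3.32 CPM in sgFLT3-DE-1 libraries, against 2.01 and 1.6 CPM in sgNT libraries (log2 fold change 0.87, SE 0.662, unadjusted p = 0.199).

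GFI1B, the repressor of red cell and platelet precursors, was weakly open near its canonical start, where a peak centred 0.858 kb upstream averaged 4.92 CPM. Its stronger own promoter peak, chr9:135819943-135820455, sits at an upstream start 33.9 kb away and overlaps a start of TSC1, so that the counts cannot be assigned to either gene. It had 9.58 and 11.3 CPM in sgFLT3-DE-1 libraries, against 9.69 and 15.6 CPM in sgNT libraries (log2 fold change -0.26, SE 0.334). The strongest distal peak, chr9:135867095-135867471, 13.2 kb downstream of the start, had 9.27 and 11.1 CPM in sgFLT3-DE-1 libraries, against 6.35 and 11.6 CPM in sgNT libraries (log2 fold change 0.21, SE 0.362). No tested GFI1B peak separated the guides. The smallest p was at chr9:135777340-135777558, where 1 sgNT library was low, with 5.25 and 7.08 CPM in sgFLT3-DE-1 libraries, against 1.34 and 6.81 CPM in sgNT libraries (log2 fold change 0.67, SE 0.514).

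Levels of different peaks are compared here per length, as CPM per kb, for the own promoter and distal peak of highest CPM at each locus. The medians printed beside them are over all consensus peaks of the class. A peak chosen as the strongest of its locus is not a like measure, and a place above the median follows in part from that choice. In sgNT libraries these own promoter peaks ranked as ERG (61.3), MECOM (44.4), LYL1 (42.6), FLI1 (41.9), HHEX (39.97), HLF (39.2), LMO2 (36.3) and GFI1B (24.7), beside a median of 37.4 for all consensus promoter peaks over the 4 libraries. In 5 of the 7 neighbouring pairs in this order the sgNT libraries overlapped, so MECOM, LYL1, FLI1, HHEX, HLF and LMO2 could not be separated step by step, while ERG lay above MECOM and GFI1B below LMO2 in both sgNT libraries. The peak ranked for GFI1B overlaps a start of TSC1, so its place is not that of GFI1B alone. With sgFLT3-DE-1, ERG averaged 35.8 ± 9.0 CPM per kb, against 61.3 ± 0.785 with sgNT (SD, n = 2 each), and LYL1 averaged 23.0 ± 7.62, against 42.6 ± 4.50 with sgNT (SD, n = 2 each). These distal peaks ranked in sgNT as MECOM (84.8), ERG (74.0), LMO2 (73.0), FLI1 (68.8), HLF (62.6), HHEX (59.1), LYL1 (51.0), TAL1 (24.7), GFI1B (23.8) and GATA2 (18.1), beside a median of 18.3 for all consensus peaks beyond 1 kb. Gaps between sgNT libraries separated only MECOM from ERG and LYL1 from TAL1. The other 7 of the 9 neighbouring pairs overlapped. The order depends on choosing peaks by CPM, because shorter peaks of the same locus could be higher per kb in sgNT, such as the own promoter peaks chr11:33892003-33892181 of LMO2 (47.9), chr19:13214069-13214149 of LYL1 (47.4) and chr10:94450141-94450382 of HHEX (45.4) and the MECOM distal peak chr3:168945800-168946182 (113).

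The share of a locus's counts in distal rather than own promoter peaks differed far more between loci than between guides. With promoters limited to 1 kb, HHEX was the most promoter-centred locus, with 47.4% ± 1.18 of its counts in distal peaks with sgFLT3-DE-1, against 49.5% ± 4.47 with sgNT (SD, n = 2 each). ERG was the most distal of the loci with a promoter peak, at 94.5% ± 0.278 with sgFLT3-DE-1, against 91.8% ± 0.696 with sgNT (SD, n = 2 each). LYL1 had 76.8% and 75.6% with sgFLT3-DE-1, against 64.8% and 73.4% with sgNT, and GFI1B had 70.3% and 70.9%, against 63.3% and 67.3%. Most of the LYL1 distal counts came from its peak 1.15 kb from a start, just outside the limit. That peak held 13.0 of 22.5 and 18.4 of 35.6 CPM with sgFLT3-DE-1, against 16.4 of 27.1 and 30.8 of 46.4 CPM with sgNT. The order of LYL1 and HHEX therefore depends on the limit. At ERG, LYL1 and GFI1B the sgFLT3-DE-1 libraries were both above the sgNT libraries. The GFI1B shares count the peak that overlaps a start of TSC1 as an own promoter peak. It held 9.58 of 13.6 and 11.3 of 17.2 own promoter CPM with sgFLT3-DE-1, against 9.69 of 13.4 and 15.6 of 21.6 CPM with sgNT. The separation at GFI1B thus rests on counts that cannot be assigned to GFI1B. An exact permutation test of 2 against 2 libraries cannot give a p below 0.33. LMO2, FLI1, MECOM and HLF had mean shares of 73.1% to 85.9% with sgFLT3-DE-1, against 74.4% to 87.0% with sgNT, and GATA2 and TAL1 stood at 100% by their lack of a promoter peak. The median over the 10 loci was 83.8% with sgFLT3-DE-1, against 84.4% with sgNT.

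**Figure D2:**
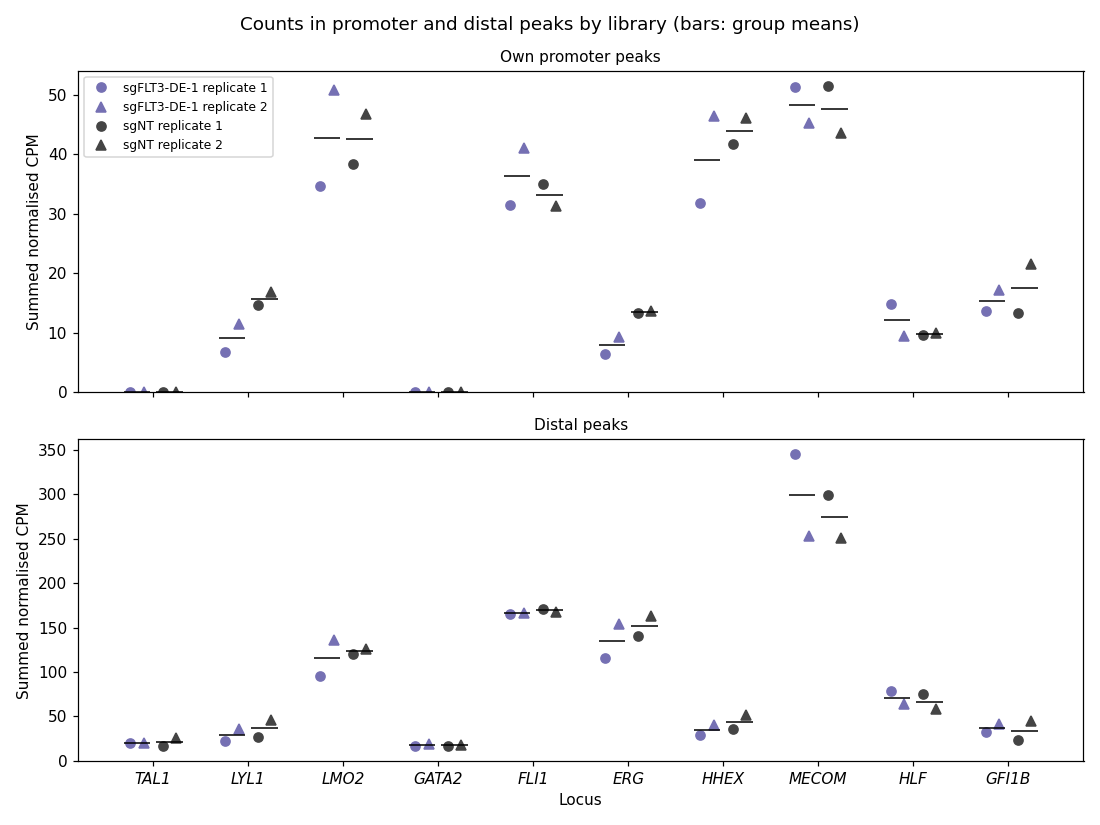
Summed normalised CPM of own promoter peaks (upper panel) and distal peaks (lower panel) for each locus, one point per library, where circles are libraries numbered 1, triangles are libraries numbered 2 and bars are group means. The distal sums of MECOM (345 and 253 CPM with sgFLT3-DE-1, against 299 and 251 CPM with sgNT) exceed those of every other locus in every library, and the summed own promoter values of LYL1 and ERG are lower in both sgFLT3-DE-1 libraries.

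The comparison of the guides asked whether targeting the FLT3 enhancer changed the accessibility of these loci. Enough counts for a test were present at 117 of the 175 peaks, namely 20 own promoter, 8 other promoter and 89 distal peaks. None passed the threshold of FDR 0.05 in edgeR's quasi-likelihood test, and each of the 117 had an adjusted p of 1.0. Over all 82558 tested peaks the share was 0.00242%, or 2 peaks, both at HBB. This test therefore did not call the targeted FLT3 enhancer either. In the paper that region is the strongest decrease genome-wide, at FDR under 0.05. A lack of calls at these loci thus cannot show that their accessibility was unchanged. At an unadjusted p under 0.05, 1 peak was higher (0.855% of the 117, against 0.827% of all tested peaks) and 4 were lower (3.42%, against 1.07%). The lower ones were the LYL1 and ERG promoter peaks, the ERG intron 1 peak and the TRMT1 promoter, and the higher one was the MECOM intron 1 peak. The count of lower peaks was 8 without sgFLT3-DE-1 replicate 2 and 0 without sgNT replicate 2. With DESeq2 no peak passed either, and at an unadjusted p under 0.05 none was higher and 1 was lower.

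Both sgFLT3-DE-1 libraries were above both sgNT libraries at 16 peaks (13.7% of the 117, against 13.7% of all tested peaks) and below them at 23 peaks (19.7%, against 13.8%). The separated peaks were unevenly spread. The LYL1 window had 6 that were lower and none that was higher, of which 2 were own promoter peaks of LYL1 and 4 were promoter peaks of TRMT1, STX10 and IER2. Tested promoter peaks as a class leaned lower (11385 lower, 6775 higher), so the share over all tested peaks is not a like baseline for these 6. LMO2 and HHEX each had 3 that were lower and none higher, HLF had 4 higher and none lower, MECOM had 5 higher and 2 lower, and FLI1 had 4 in each direction. The log2 fold changes ran from -1.76 to 1.12, with standard errors of 0.252 to 0.681. Their median was -0.03 (62 lower, 55 higher), beside 0.01 for all tested peaks. Own promoter peaks had a median of -0.04, beside -0.09 for all tested promoter peaks, and distal peaks 0.01, beside 0.05 for all tested peaks beyond 1 kb. The 8 promoter peaks of neighbouring genes had a median of -0.30. By locus, the medians ranged from -0.42 in the LYL1 window (8 of 10 lower, with 5 of the 10 at promoters of neighbours) to 0.34 at HLF (6 of 8 higher), with 0.12 at MECOM (16 of 24 higher) and -0.19 at HHEX.

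**Figure D3:**
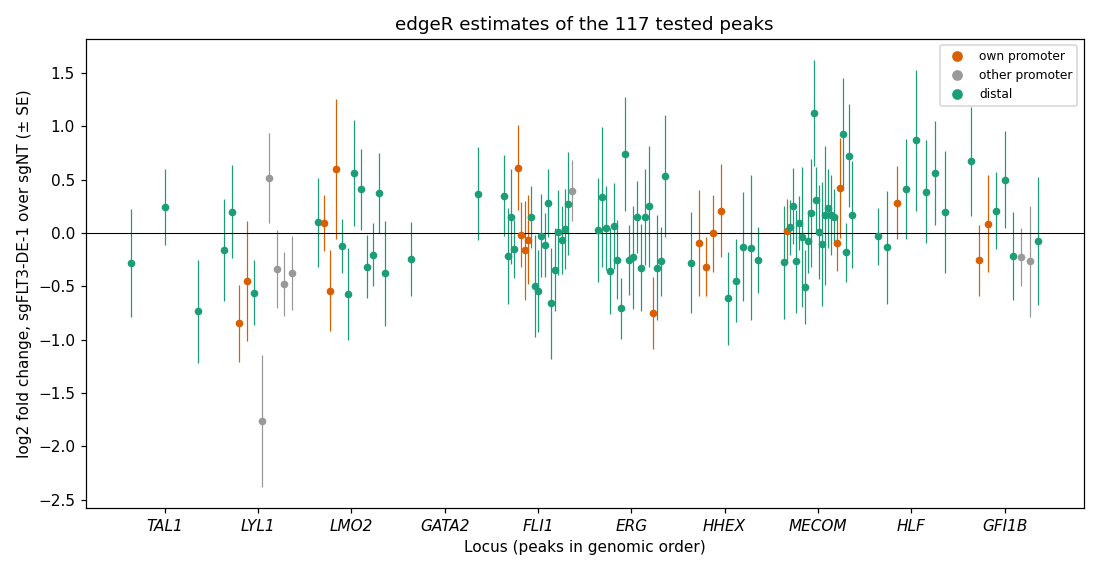
The log2 fold change (sgFLT3-DE-1 over sgNT) of each of the 117 tested peaks with its standard error from edgeR, by locus and in genomic order, coloured by class. Points lie on both sides of 0 at every locus, the lowest being the TRMT1 promoter peak in the LYL1 window at -1.76 and the highest an intronic MECOM peak at 1.12.

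GC content differed between the loci. The tested peaks were richest in GC at LYL1 (median 68.1%) and poorest at MECOM (47.8%). Over all tested peaks the median log2 fold change was 0.07 in peaks under 40% GC and -0.14 in peaks above 70% GC. In the peaks of the 10 loci the medians showed no such order, with -0.27 under 40% GC (4 peaks), 0.12 from 40% to 50% (40 peaks), -0.08 from 50% to 60% (41 peaks), -0.06 from 60% to 70% (18 peaks) and -0.08 above 70% (14 peaks). After a correction of each library for GC, the log2 fold change of the LYL1 promoter peak was -0.68 (SE 0.33), that of the ERG promoter peak -0.74 (SE 0.304), that of the ERG intron 1 peak -0.73 (SE 0.261) and that of the MECOM intron 1 peak 1.14 (SE 0.488), none of which passed.

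**Figure D4:**
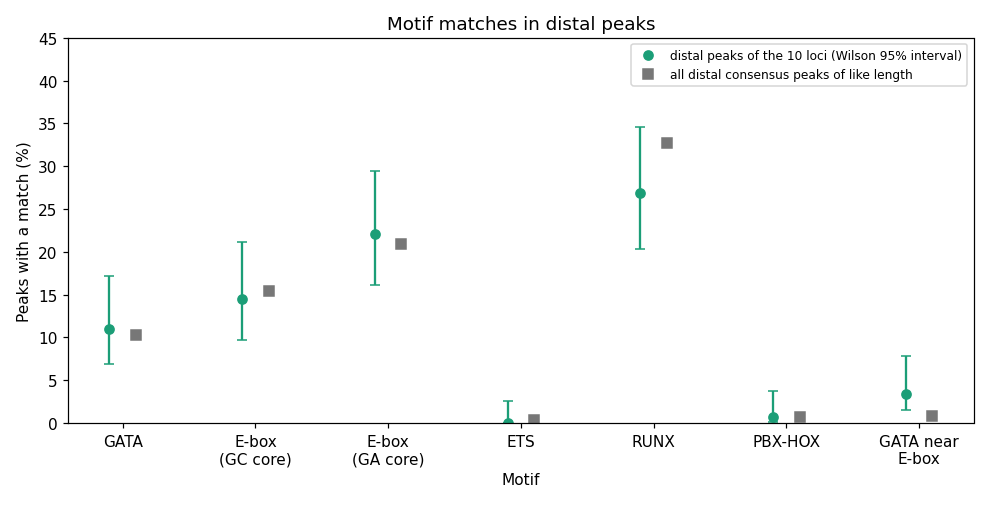
Share of distal peaks with a match to each motif, in percent, for the 145 distal peaks of the 10 loci (circles, Wilson 95% intervals) and for all distal consensus peaks of like length (squares). The squares lie inside the intervals of all 6 single motifs, and the pair of GATA and E-box was found in 3.45% of the peaks of the 10 loci, against 0.824%.

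For each single motif the share in all distal peaks of like length lay inside the interval of the share in these loci. GATA matches were present in 11.03% of the 145 peaks, against 10.2%, the E-box CAGATG in 22.1%, against 21.0%, the E-box CAGCTG in 14.5%, against 15.5%, and RUNX in 26.9%, against 32.7%. PBX-HOX was found in 0.690%, against 0.654%. The ETS letters were found in 0 of 145, against 0.352%. The pair of GATA and E-box within 20 bases was found in 5 peaks (3.45%, Wilson 95% interval 1.48% to 7.82%, which covers counting error only), against 0.824%. In windows of 300 bases around each peak centre the pair was found in 4.83%, against 1.16%. Of the 175 peaks, 0 overlapped a HOXA9-bound region of the study's list, which was used as positions only. No such region lay anywhere in the 10 windows. The list held only 229 regions over the whole genome, so few overlaps could be found at any small set of loci. Whether HOXA9 avoids these loci was not tested.

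Partners of these factors were read at their promoters. The list held 22 genes, among them LDB1, which binds LMO2, the E proteins TCF3, TCF4 and TCF12, RUNX1, and the stem cell surface proteins CD34 and KIT. A promoter peak was present at 17 of them and absent at GATA1, ZFPM1 (a GATA1 cofactor), CBFA2T3, PRDM16 and TEK. Of 41 tested promoter peaks none passed at FDR 0.05, where 22 had a lower and 19 a higher estimate (median log2 fold change -0.04), beside 11385 lower and 6775 higher among all 18160 tested promoter peaks. At an unadjusted p under 0.05, 2 of the 41 were lower, beside 1.07% of all tested peaks, and none was higher, beside 0.827%. These shares are over promoter and distal peaks together. Promoter peaks alone leaned lower, so they are not a like baseline for the 41. The smallest p among lower peaks was at RUNX1, chr21:36260910-36261274, with 23.6 ± 2.85 CPM in sgFLT3-DE-1 libraries, against 37.6 ± 4.54 CPM in sgNT libraries (SD over 2 libraries each, log2 fold change -0.66, SE 0.259, edgeR adjusted p = 1.0). Among higher peaks it was at TCF12, chr15:57210289-57210379, with 16 and 16 counts in sgFLT3-DE-1 libraries, against 8 and 1 in sgNT libraries (log2 fold change 1.35, SE 0.673). The main TCF12 promoter peak beside it had 47.6 ± 2.70 CPM with sgFLT3-DE-1, against 47.4 ± 0.368 CPM with sgNT (SD over 2 libraries each). The most accessible promoter of the list was that of SSBP2, a protein of the LDB1 complex, with 94.9 CPM over the 4 libraries.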

How the data were processed

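ATAC-seq libraries of SEM cells (2 with sgFLT3-DE-1, 2 with sgNT) were grouped by their labels. The authors deposited raw counts per consensus peak and the list of the same 139872 peaks (hg19). The sources name different aligners, Bowtie2 in the extract protocol and BWA in the submitters' processing notes (which also list Trim Galore 0.4.4, SAMtools 1.2, bedtools 2.24.0 and MACS2 2.1.1.20160309). Neither states a transposase shift. Peaks were called in the libraries compared, so an open region of either guide enters the list.

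Starts were converted to 1-based positions. Genes came from GENCODE 44 lifted to GRCh37. Own promoter peaks were within 1 kb of any annotated start of a protein-coding transcript of the gene. Counts were fitted over the whole table in edgeR 4.0.16 (R 4.3.3) with filterByExpr (minimum count 10, minimum total 15), TMM factors, the quasi-likelihood test, guide as the only term and Benjamini-Hochberg adjustment over 82558 tested peaks. The procedure was tested on simulated counts, drawn at a single common dispersion and without the likeness of libraries with the same number. That simulation therefore does not measure the error rates of the test in these libraries. CPM used TMM-scaled totals. Libraries held 2683477 to 4831164 counts, and their medians were 9 to 17 counts a peak, so weak peaks are imprecise.

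Named at each locus were the own promoter and the distal peak of highest CPM and the tested peak of smallest p, and over all loci the 5 peaks of smallest p in each direction. The peaks around them and the GATA and E-box pairs were chosen after their values were seen. For the partner list the peak of smallest p in each direction and the most accessible promoter were named. The members and lists were chosen with earlier results of these data known. Alternatives were RLE factors, total counts only, loess offsets, a GC correction, other count filters, DESeq2 1.42.0, limma-voom (limma 3.58.1), the replicate number as a block, thinning, leaving out each library, and other windows and promoter distances.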

Additional observations from a re-analysis of the deposited data

How the results depend on the processing

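No peak of the 10 loci passed FDR 0.05 under any alternative run, and the lowest adjusted p was 0.178 with the replicate number as a block, 0.197 with the block and GC correction together and 0.517 without sgFLT3-DE-1 replicate 2. The libraries share only that number (deviations from the group means correlated at 0.397 over 2 pairs, and the labels do not say what the number marks). Counts at an unadjusted p under 0.05 moved. Higher peaks (1 in the main analysis) numbered 2 with the GC correction, 4 with the GC correction and replicate block, 2 with the replicate block and 2 without a filter, and 0 with a mean count of at least 50, DESeq2, limma-voom or thinning, with a range of 0 to 1 on leaving out one library. Lower peaks (4) numbered 1 with a mean count of at least 50 or DESeq2, 7 with a window of 100 kb, and 0 (without sgNT replicate 2) to 8 (without sgFLT3-DE-1 replicate 2). With a library left out the median log2 fold change ran from -0.17 to 0.0239 over all peaks of the loci, from -0.25 to 0.0595 over own promoter peaks and from -0.13 to 0.0237 over distal peaks. The distal median was -0.0229 with the GC correction, -0.00769 with GC correction and replicate block, -0.0118 without a filter, -0.0838 with a mean count of at least 50, -0.0190 with the replicate block, -0.0109 with DESeq2, 0.0201 with limma-voom, -0.0263 with thinning, -0.0285 with a window of 100 kb and -0.0311 with promoters within 500 bp. Without flanks (0 kb) the loci held 96 peaks, 76 of them distal, and with 10 kb flanks 96 distal peaks. With promoters within 500 bp, sgFLT3-DE-1 had a median distal share of 87.0% and sgNT one of 88.5%, and within 2500 bp these were 74.3% and 74.6%. Named peaks near 0 changed sign. For the FLI1 start peak the log2 fold change was 0.000621 with total counts, 0.0105 with loess offsets, 0.00167 with GC correction, 0.0307 with GC correction and replicate block and 0.33 with thinning. For the strongest HLF distal peak it was 0.00517 with loess offsets, 0.10 with GC correction and 0.11 with the block added. For the MECOM own promoter peak it was 0.0771 with GC correction, 0.10 with the block added and 0.0263 with thinning. With a library left out, 10 named peaks changed sign, with log2 fold changes from -0.21 to 0.19 (FLI1 start), -0.35 to 0.23 (HLF distal), -0.31 to 0.13 (MECOM own promoter), -0.16 to 0.39 (strongest MECOM distal), -0.0576 to 0.58 (HLF own promoter), -0.25 to 0.34 (LMO2 own promoter), -0.18 to 0.74 (TAL1 distal), -0.19 to 0.66 (GFI1B distal at 13.2 kb), -0.14 to 2.17 (GFI1B distal at -76.6 kb) and -0.58 to 0.0878 (GFI1B own promoter). The causes were not tested. Depth limits the weakest peaks, since 58 of the 175 had too few counts for a test.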

Other observations

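The library number went along with differences between loci that were larger than most differences between guides. The median over tested peaks of the log2 ratio of libraries numbered 1 to libraries numbered 2 was 0.37 at MECOM (24 peaks) and 0.23 at HLF (8 peaks), and negative at the other 8 loci, down to -0.45 at HHEX (10 peaks) and -0.54 at GFI1B (9 peaks). The medians for the guides ran from -0.42 to 0.34. What the number stands for is not stated in the labels.

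Beyond the windows, 83 further peaks lay 50 to 100 kb from the gene bodies. Several were as open as the strongest peaks inside. Between FLI1 and its ETS neighbour ETS1, a peak 82.8 kb upstream of the FLI1 start (chr11:128480865-128481533) had 52.8 and 52.2 CPM in sgFLT3-DE-1 libraries, against 47.1 and 47.7 CPM in sgNT libraries. A peak 91.4 kb upstream of GATA2 (chr3:128303334-128303564) averaged 12.4 CPM, above every peak inside the GATA2 window. A peak 67.3 kb downstream of the HHEX start (chr10:94516814-94517308) averaged 21.0 CPM, close to the 21.3 CPM of the HHEX promoter. These peaks were chosen after their values were seen.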
